A study of Rattus norvegicus with 12 samples.

Results

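The genes described here are the 123 microRNA genes whose liver signal could be measured on a rat expression array. They were chosen by rule from 363 microRNA genes among 18166 genes tested. A gene was taken when a row of the array's annotation named it alone, when its symbol began with Mir and a digit or with Mirlet7, and when its mean log2 signal over the 6 control arrays was 4 or higher. The control values therefore chose the members, and their level is a description. The remaining 240 microRNA genes lay below that minimum. The rows are named for the microRNA genes themselves and not for the longer genes that hold some of them, so they are called microRNA genes below.

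The livers came from male obese Zucker rats, all of them homozygous fa/fa for the defective leptin receptor gene, aged 5 to 6 weeks when feeding began. A control diet or a diet with 5% PSC, matched for energy and crude nutrients, was fed for 4 weeks and the rats were killed on day 29. PSC is the labels' name for the supplement, which the series title describes as an oyster mushroom produced by biotechnology. Feeding groups held 12 rats in cages of 2, and 6 rats of each were drawn at random for the arrays, with 1 rat per array. All rats share the obese genotype and the sex, and no lean group is analysed here, so that the values describe the diets within this model only. Rats of a cage, if both were profiled, share more than their diet, and nothing in the labels says which did.

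A microRNA gene is copied into a long primary transcript that folds into hairpins. The nuclease Drosha and its partner Dgcr8 cut the hairpin free, Xpo5 exports it, and Dicer1 cuts it to a short duplex, of which a strand is loaded onto an Argonaute protein. The seed, bases 2 to 8 of that strand, pairs with target messages, which are then repressed or degraded. In liver, miR-122 is the dominant microRNA of hepatocytes. Neighbouring hairpins can share a primary transcript, and many microRNA genes lie in introns of protein-coding genes. The arrays were hybridised with labelled total RNA, and the labels do not say whether a row followed the primary transcript, the hairpin or the mature form.

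The mature sequences of the members on which the results turn are shown because their seeds define which members could address like targets. They come from RefSeq (rat assembly GRCr8), which held mature sequences for 114 of the 123 members. They run from 5′ to 3′ with the seed in capitals. The first 5 lines belong to the Mir290 group on chromosome 1, in which Mir291b rose, and the next lines to the neighbours Mir181d and Mir181c.
rno-miR-291b: aAAGUGCAuccauuuuguuagu
rno-miR-291a-3p: aAAGUGCUuccacuuugugugcc
rno-miR-292-3p: aAGUGCCGccagguuuugagugu
rno-miR-292-5p: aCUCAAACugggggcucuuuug
rno-miR-290: uCUCAAACuaugggggca
rno-miR-181d-5p: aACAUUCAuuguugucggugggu
rno-miR-181c-5p: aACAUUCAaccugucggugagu
The other called members were Mir3555, whose mature product is named miR-191b, and Mir34b. Mir191 lies opposite Mir3555 on the other strand. The last 3 lines give miR-122, miR-568, from the member with the most negative difference, and miR-7a, which is made by both Mir7-1 and Mir8.
rno-miR-191b: gAACGAAAuccaagugcagcu
rno-miR-191a-5p: cAACGGAAucccaaaagcagcug
rno-miR-34b-5p: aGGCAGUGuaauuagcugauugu
rno-miR-122-5p: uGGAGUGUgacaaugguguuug
rno-miR-568: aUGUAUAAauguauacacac
rno-miR-7a-5p: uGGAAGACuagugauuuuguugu
In that assembly miR-291b lies at chr1:74879204-74879225 on the minus strand, miR-181d-5p at chr19:40888484-40888506 on the plus strand, miR-191b at chr8:118142682-118142702 on the minus strand and miR-34b-5p at chr8:60306657-60306679 on the minus strand. No label names the build of the array design, so these are positions of the sequences and not of the array rows.

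The arrays had median log2 signals from 4.71 to 4.85 and every pair correlated between 0.986 and 0.994 over the rows, with no pair identical. The hepatocyte marker Alb stood at 13.16 in both diets. Of 5 hepatocyte markers 3 were measured under a single symbol, and 0 were called. Ttr differed by 0.09 and Cyp2e1 by 0.24 (limma, adjusted p = 0.32 and 0.388). The mean of the 3 ran from 11.75 to 12.13 on control arrays and from 12.05 to 12.21 on PSC arrays. Some markers of other cells differed with the diet. Called were 1 of 6 stellate cell, 1 of 5 macrophage and 1 of 5 lymphocyte markers, beside 2.6% of all genes. The stellate cell gene Dcn fell by 0.88, the macrophage receptor Cd163 rose by 0.87 and the cytotoxic lymphocyte gene Nkg7 rose by 0.51 (limma, adjusted p = 0.0144, 0.0436 and 0.0266). The mean of 5 macrophage markers ran from 6.06 to 7.35 on control arrays and from 7.31 to 7.81 on PSC arrays, that of 5 lymphocyte markers from 4.05 to 4.2 and from 4.21 to 4.49, and that of 6 stellate cell markers from 6.77 to 7.08 and from 6.45 to 6.86. No marker of endothelium (2 measured), bile duct (4), pancreas (4) or red cells (1) was called. The part of these shifts in the microRNA results was not tested, and in bulk liver fewer cells of a type cannot be told apart from less RNA per cell.

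Few of the 123 members differed between the diets, and those called in the main comparison were higher in PSC-fed rats. Of the 123 members, 4 rose and 0 fell (limma, adjusted p below 0.05 over all 18166 genes), which is 3.25% where 2.6% of all genes were called. The members were all on the higher side, on which 0.716% of all genes were called, while 1.89% of all genes were called lower. Before adjustment, 25 members (20.3%) passed p below 0.05, beside 19.1% of all genes. Both shares, taken over both directions, are close to the background. By direction, 19 members (15.4%) were higher and 6 (4.88%) lower before adjustment, beside 9.02% and 10.1% of all genes. Shifting the deposited values of each array to a common median called 4 members higher and 3 lower. Over all genes it called 82 higher and 584 lower, against 130 and 343 without the shift.

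The largest rise was that of Mir291b, a gene of the embryonic Mir290 group. Its log2 signal had a lowest, median and highest value of 5.14, 5.42 and 5.76 on control arrays and of 5.92, 6.15 and 6.34 on PSC arrays. Every PSC array lay above every control array. The means were 5.44 ± 0.21 and 6.16 ± 0.15 (SD, n = 6), a log2 difference of 0.72 (SE 0.10, limma adjusted p = 0.0041), or 1.64-fold. It was called without any single array and under each of the 10 other settings tried, with differences from 0.66 to 0.78.

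Mir181d encodes a member of the miR-181 family, known for its role in lymphocyte development. Its signal ran from 6.19 to 6.72 (median 6.54) on control arrays and from 6.73 to 7.14 (median 6.96) on PSC arrays, again with no overlap. The means were 6.51 ± 0.20 and 6.96 ± 0.15 (SD, n = 6), and the log2 difference was 0.44 (SE 0.09, limma adjusted p = 0.0267). Mir291b and Mir181d were the only 2 members without overlap with PSC above (1.63%), beside 0.71% of all genes, and 0 members lay wholly below, beside 1.48% of all genes. Mir181d was not called without control replicate 1, 4 or 6 or PSC replicate 5 or 6, where the adjusted p lay between 0.0533 and 0.0699.

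Mir3555 and Mir34b were called with some overlap. Mir3555 had control values from 4.69 to 5.07 (mean 4.85 ± 0.13) and PSC values from 5.05 to 5.6 (mean 5.30 ± 0.23; SD, n = 6). Of its PSC arrays, 5 of 6 lay above all controls, and the log2 difference was 0.44 (SE 0.10, limma adjusted p = 0.0321). Mir34b, whose family is known as a transcriptional target of p53, had control values from 3.94 to 4.34 (mean 4.13 ± 0.15) and PSC values from 4.2 to 4.81 (mean 4.55 ± 0.21). Here too 5 of 6 PSC arrays lay above all controls, with a log2 difference of 0.42 (SE 0.10, limma adjusted p = 0.0375). Mir34c, its neighbour within 10 kb on the same strand, lay below the signal minimum and differed by 0.08. Mir3555 lost its call without control replicate 1, 4, 5 or 6 or PSC replicate 5 or 6 (adjusted p from 0.0516 to 0.0765). Mir34b lost it without control replicate 1, 3, 5 or 6 or PSC replicate 1, 2, 5 or 6 (0.0561 to 0.0831).

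The count of called members therefore depended on single arrays. It was 1, Mir291b alone, without control replicate 1, control replicate 6, PSC replicate 5 or PSC replicate 6, and 2 without control replicate 4 (Mir291b and Mir34b). With PSC replicates 2 and 5 both left out Mir181d, Mir3555 and Mir34b were not called (adjusted p = 0.0923, 0.106 and 0.126). Adjustment over all rows of the array ended the calls of Mir3555 and Mir34b (0.0571 and 0.0652). Mir34b was also lost under repeated quantile normalization, cyclic loess and array weights (0.0571, 0.056 and 0.0504).

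**Figure D1:**
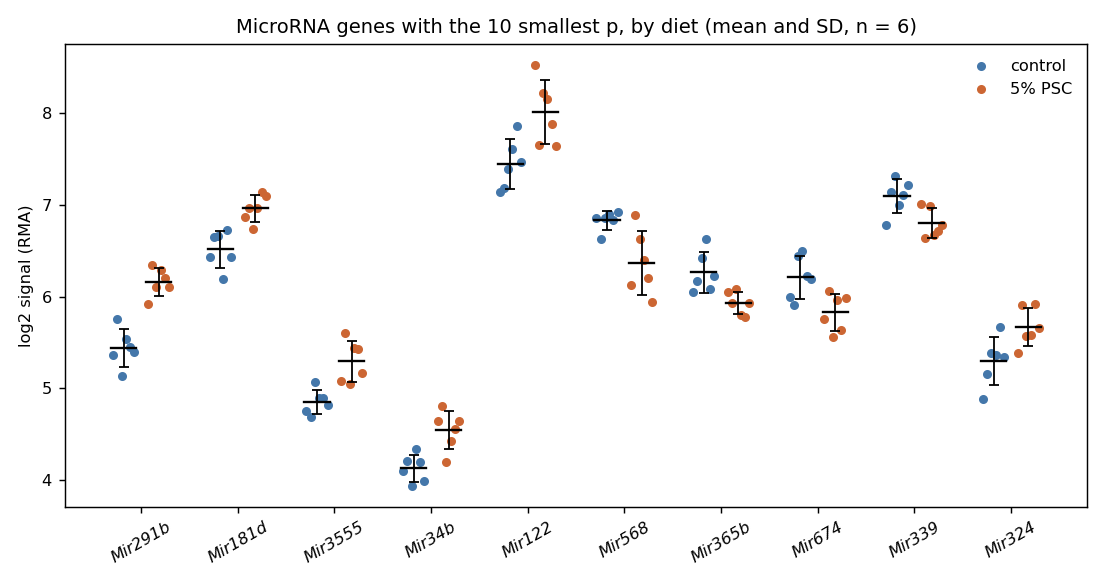
Log2 signal (vertical axis) of the 10 members with the smallest p on each array; points are arrays, blue for control and orange for 5% PSC, and bars are the mean and SD (n = 6). All PSC points of Mir291b and Mir181d lie above all control points, while those of the other 8 members overlap.

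Mir122 came next in order of p. Its control arrays ran from 7.14 to 7.86 with a mean of 7.44 ± 0.27, and its PSC arrays from 7.64 to 8.52 with a mean of 8.01 ± 0.35 (SD, n = 6). The log2 difference of 0.57 (SE 0.15) did not pass (limma adjusted p = 0.0622). It passed without control replicate 5 (adjusted p = 0.0457) or without PSC replicate 2 (0.0479), and under a filter on dim genes (0.0476), a variance prior with trend (0.0427) and cyclic loess (0.0495). Over all alternatives its difference lay between 0.47 and 0.69 and its adjusted p between 0.0427 and 0.144. Mir3591, whose hairpin overlaps that of Mir122 by 85 bases on the other strand, lay below the signal minimum and differed by 0.17 (adjusted p = 0.588).

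No member with lower values passed the threshold in the main comparison. Mir568 had control values from 6.63 to 6.92 and PSC values from 5.94 to 6.89, with a log2 difference of -0.47 (SE 0.13, limma adjusted p = 0.069). PSC replicate 2, at 6.89, lay among the controls, and without it the adjusted p was 0.0166. Mir365b differed by -0.33 (adjusted p = 0.077), Mir674 by -0.38 (0.0836) and Mir339 by -0.29 (0.109). Without control replicate 2 Mir674 passed (0.0492). With array weights on the deposited values Mir568 passed too, at -0.50 (0.0356). Under median centring Mir568, Mir365b and Mir674 passed, at -0.51, -0.38 and -0.43. The last of the 10 smallest p belonged to Mir324, at 0.37 (adjusted p = 0.11).

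**Figure D2:**
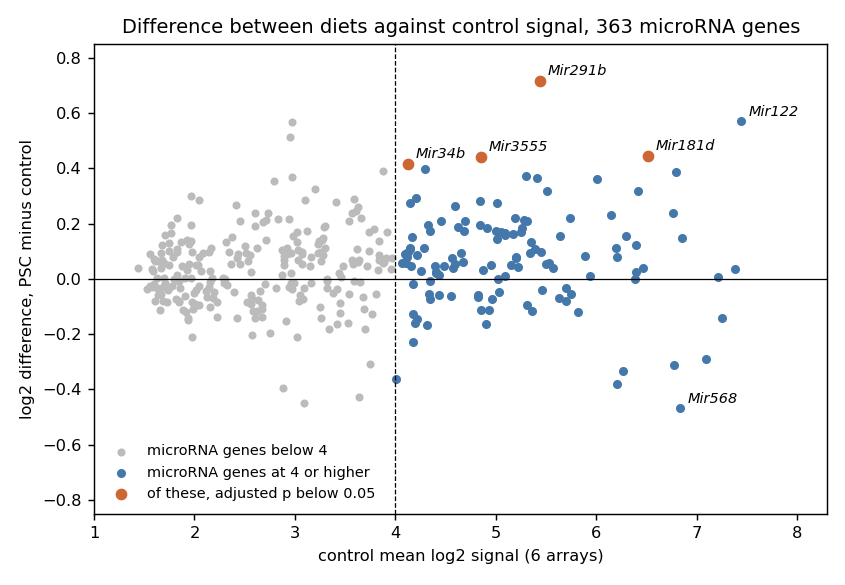
Log2 difference between diets (vertical axis, PSC minus control) against the control mean log2 signal (horizontal axis, 6 arrays) for the 363 microRNA genes; grey points lie below the minimum of 4, blue points are the 123 members and orange points the 4 called members. The called members lie at control means from 4.13 to 6.51, and members range from -0.47 to 0.72.

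Members lay slightly higher in PSC-fed rats as a group. Of the 123, 88 (71.5%) had a difference above 0, beside 53.9% of all genes, and their median was 0.075 beside 0.013 over all genes and -0.007 over the 13306 other genes at 4 or higher. These are descriptions, since members on the same arrays share their error. Arrays differed within each diet: control replicate 1 held the lowest value of 29 members and PSC replicate 2 the highest of 38, and PSC replicate 2 also had the highest array median, 4.85. The arrays with the highest array medians were PSC replicates 2 and 5 (4.85 and 4.82). Without both, the members' median was 0.037, beside 0.006 over all genes. With each array centred on its median, the members' median was 0.03, beside -0.032 over all genes.

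In bands of control mean signal the members could be set beside other genes of like signal. Between 4 and 5 the 58 members had a median difference of 0.055 and the 3339 other genes 0.073. Between 5 and 6 the medians were 0.096 for 42 members and -0.002 for 2816 other genes, between 6 and 7 they were 0.117 for 18 members and -0.05 for 2819 other genes, and at 7 or higher 0.007 for 5 members and -0.037 for 4332 other genes. The members thus had the higher median in each band from 5 upward and the lower one in the dimmest. From the dimmest band to the brightest, 2, 1, 1 and 0 members were called, beside 1.02%, 2.88%, 3.97% and 4.87% of the other genes.

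**Figure D3:**
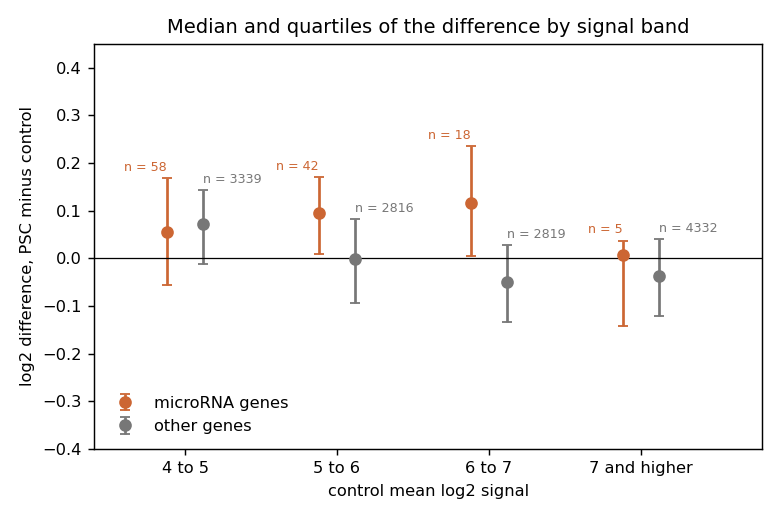
Median log2 difference between diets (vertical axis, PSC minus control) in 4 bands of control mean log2 signal (horizontal axis), for members and other genes, with bars over the interquartile range and n beside each point. Medians of other genes go from 0.073 in the dimmest band to -0.037 in the brightest, and members lie above them in the upper 3 bands.

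The members varied more between arrays of a diet than all genes, taken at any signal. Their median SD was 0.19 over control arrays and 0.21 over PSC arrays, beside 0.12 and 0.15 over all genes. With 1 array per rat, variation between rats cannot be told apart from technical variation. The control means of the members ran from 4.01 to 7.44 with a median of 5.02. The 10 members with the highest mean were Mir122, Mir345, Mir210, Mir3577, Mir207, Mir339, Mir99b, Mir181c, Mir181d and Mir466d. The signal of a row depends on its probes as well as on the RNA, so this order does not rank amounts of microRNA. Of these, Mir210, a target of the hypoxia factor HIF, differed by 0.01 (limma adjusted p = 0.976) and Mir207 by 0.39 (adjusted p = 0.226).

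Just inside the minimum lay Mir7-1 with a control mean of 4.01, Mir325 with 4.07 and Mir106b with 4.1, and just outside it Mir501 with 3.97, Mir137 with 3.96, Mir877 with 3.91 and Mir140 with 3.91. A minimum on the mean over all 12 arrays gave 124 members, of which 122 were shared. Mir7-1 left and Mir24-1 and Mir501 entered, and the 4 called members stayed. Of all 363 microRNA genes 33.9% reached the minimum, beside 73.9% of all genes. Of 1377 genes for smell and taste receptors, which liver is not known to use widely, 11.5% reached it. The files hold no detection calls, so a value below 4 does not show absence.

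Hairpin composition went with signal, which the rule used. RefSeq held a hairpin for 330 of the 363 microRNA genes, 113 members among them. The median GC content was 54.5% in members and 46.1% in the other microRNA genes. Over 4 bins of rising GC content, 12 of 83 genes (14.5%), 18 of 82 (22.0%), 30 of 82 (36.6%) and 53 of 83 (63.9%) were members. Across the 330 genes GC content and the mean signal over all 12 arrays correlated at r = 0.51 (Pearson) and rho = 0.54 (Spearman). Across the 113 members the values were 0.13 and 0.11. GC content also went with the difference between diets, at a Spearman rho of 0.31 across the 330 genes, 0.19 across the members and 0.32 across the 217 others. Its part in the higher values of the members was not tested. These genes share the arrays and are not independent replicates. Probe sequences were not available, so their composition was not compared with that of the hairpins.

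**Figure D4:**
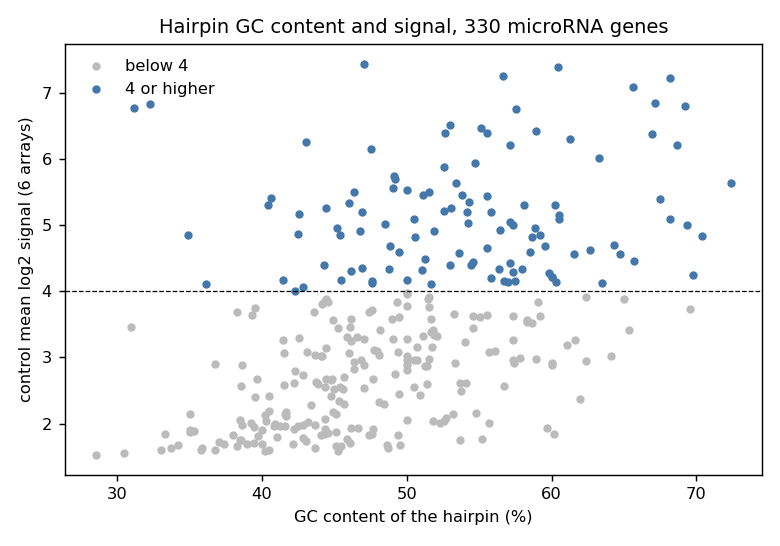
Control mean log2 signal (vertical axis, 6 arrays) against hairpin GC content in percent (horizontal axis) for 330 microRNA genes; blue points reach the minimum of 4 (dashed line) and grey points do not. In the bin of highest GC content 53 of 83 genes are members, against 12 of 83 in the lowest.

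Position showed which members lie together. Of the 113 members with a hairpin, 47 lie within 10 kb of another RefSeq microRNA hairpin on the same strand, measured or not. Of such clusters, 12 hold several members, 31 in all. In the Mir290 group, which is known for expression in early embryos and embryonic stem cells, all 4 members had differences above 0. Beside Mir291b at 0.72, Mir291a went from a mean of 4.30 to 4.69 (0.40, limma adjusted p = 0.136), Mir292 from 5.51 to 5.83 (0.32, 0.156) and Mir290 from 5.20 to 5.28 (0.075, 0.564). The groups of these 3 overlapped. The PSC values of Mir290 spanned only 5.24 to 5.36, within or just above the control range of 4.96 to 5.35.

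The seeds printed above differ within the group. The miR-291b seed AAGUGCA was found in no other member. It differs only in its last base from the AAGUGCU of miR-291a-3p, which is shared with Mir105 (0.05). Mir290 and Mir292 share CUCAAAC. Of the other genes of the group, Mir294 lay far below the minimum, at 1.96 ± 0.11 on control and 2.26 ± 0.11 on PSC arrays (SD, n = 6), and was called at 0.30 (limma adjusted p = 0.0344). Mir293 differed by less than 0.01.

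**Figure D5:**
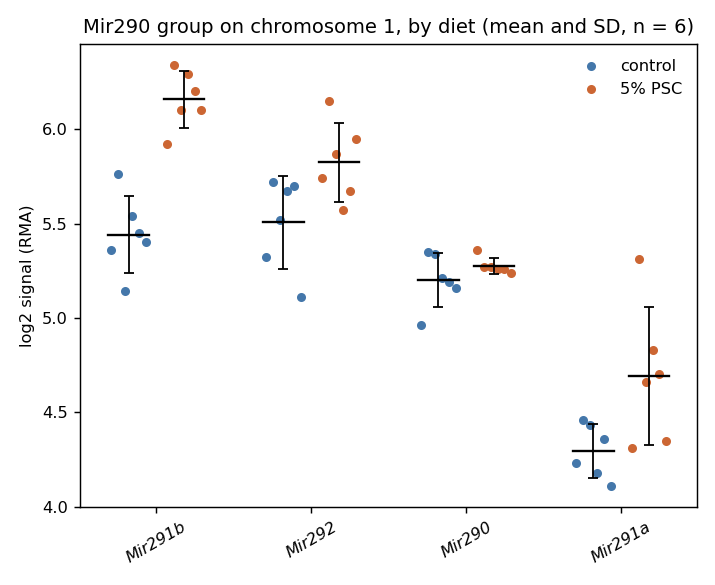
Log2 signal (vertical axis) of the 4 members of the Mir290 group on each array; points are arrays, blue for control and orange for 5% PSC, and bars are the mean and SD (n = 6). The diets do not overlap for Mir291b and overlap for Mir292, Mir290 and Mir291a.

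Mir181c and Mir181d lie next to each other and share the seed ACAUUCA. Mir181c had control values from 6.44 to 7.01 and PSC values from 6.59 to 7.37, with a difference of 0.24 (limma adjusted p = 0.338), beside 0.44 for Mir181d. In the imprinted Meg3 region, a cluster of 9 measured genes held Mir770, Mir127, Mir431 and Mir673 as members, with a median difference of 0.10, and a cluster of 30 held Mir758, Mir666, Mir134 and Mir494, with a median of 0.14. All 8 lay above 0, from 0.04 to 0.27, and 0 passed. With the genes below the minimum, 7 of 9 and 22 of 30 lay above 0, and the lowest of those genes stood at -0.13 and -0.12. Mir134 had the largest of these differences (0.27, limma adjusted p = 0.214), and it alone passed before adjustment.

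Opposite strands were compared where hairpins overlap. The pair Mir191 and Mir3555 overlaps by 91 bases. Mir191, one of the more widely expressed microRNAs, went from a range of 4.92 to 5.24 on control to 5.08 to 5.32 on PSC arrays (0.17, limma adjusted p = 0.194), beside 0.44 for Mir3555. The other 4 pairs of members on opposite strands were Mir210 with Mir3574 (0.01 and 0.08), Mir214 with Mir3120 (0.02 and 0.10), Mir219-2 with Mir2964 (0.08 and 0.02) and Mir3597-1 with Mir9-1 (0.19 and 0.21), none of them called. The labels do not say how far the probes of such pairs separate the strands.

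Members that share a seed were called about as often as members in general. The 114 members with mature sequences gave 188 sequences with 171 distinct seeds, and 15 seeds were shared by 29 members. Among these 29, Mir181d alone was called (3.45%, beside 3.25% of all members and 2.6% of all genes). Mir17, Mir93 and Mir106b, of the family linked to cell cycle control, share AAAGUGC and ranged from -0.07 to 0.18. Mir25, Mir32 and Mir92b share AUUGCAC and ranged from -0.23 to 0.21. Mir98 and Mirlet7a1, of the let-7 family, differed by 0.17 and 0.16. The copies of miR-7a, Mir7-1 and Mir8, had differences of -0.36 (limma adjusted p = 0.128) and 0.26 (0.15), and neither passed. Mir7-1 entered through its control values, with control replicate 4 the highest at 4.39, and a rule on control values favours a negative difference in a gene so near the minimum. Without that array its difference was -0.29.

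Of the microRNAs known in hepatocytes or liver metabolism, 15 genes were measured and 8 were members. Of these 8, 0 passed, and 2 passed before adjustment (Mir122 and Mir802). Among all genes, 2.6% were called and 19.1% passed before adjustment. Mir802, linked to glucose metabolism in obesity, ran from 4.88 to 5.94 on control and from 5.57 to 5.96 on PSC arrays, with a difference of 0.37 (limma adjusted p = 0.193). The other 6 lay between -0.06 and 0.09, among them Mir22 at 0.01, Mir192 at 0.04, Mir30e at -0.04 and Mir107 at 0.09. The median of the 8 was 0.06, beside 0.013 over all genes.

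Of 11 measured genes for microRNAs of stellate cells, fibrosis and vessels, 5 were members (Mir126a, Mir143, Mir21, Mir214 and Mir29c). They lay between -0.17 and 0.02 with a median of -0.07. Of these 5, 0 passed, also before adjustment, beside 2.6% and 19.1% of all genes. Mir21, known to rise in fibrosis, had a control range of 4.6 to 5.07 and a PSC range of 3.81 to 5.09 (-0.17, limma adjusted p = 0.639). Without PSC replicate 6, at 3.81, its difference was 0.02. The stellate cell marker Dcn fell on the same arrays, as given above. Of 6 measured genes for microRNAs of blood and immune cells 0 reached the minimum, while the macrophage and lymphocyte markers named above rose. Of 11 genes listed as imprinted or embryonic 6 were members, 1 of which rose (Mir291b), and 3 passed before adjustment. Among all genes, 2.6% were called, 0.716% on the higher side, and 19.1% passed before adjustment. The members of the Meg3 region given above are not among these 6. Mir483, which lies in Igf2, differed by 0.32 (adjusted p = 0.34), with 0.17 to 0.44 when single arrays were left out and 0.02 (adjusted p = 0.942) without PSC replicates 2 and 5.

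Genes that make and use microRNAs did not pass the threshold. Of 35 listed genes 31 were measured, 0 rose and 0 fell (limma), and 3 passed before adjustment, all higher. Among all genes, 2.6% were called and 19.1% passed before adjustment, 9.02% on the higher side. Lin28a, which blocks the maturation of let-7, went from 4.73 to 5.02 (0.29, SE 0.08, adjusted p = 0.0521). Prkra, a Dicer partner, differed by 0.20 (adjusted p = 0.112) and Ran, which drives nuclear export with Xpo5, by 0.16 (adjusted p = 0.218). Drosha differed by -0.05, Dgcr8 by 0.01, Dicer1 by -0.07 and Xpo5 by -0.14 (adjusted p = 0.638, 0.957, 0.439 and 0.285). The median of the 31 was -0.052, beside 0.013 over all genes.

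The genes that hold microRNA genes were compared with them. By their RefSeq annotation, 65 members lie inside another gene on the same strand. A host was measured for 50 members, 41 hosts in all. Of these 50 pairs, 46 rest on that annotation and 4 only on a list of known pairs (Mir21 with Vmp1, Mir126a with Egfl7, Mir30e with Nfyc and Mir106b with Mcm7). Of these hosts 0 rose and 0 fell (limma), and 5 passed before adjustment (2 higher and 3 lower). Among all genes, 2.6% were called and 19.1% passed before adjustment. The differences of the hosts ran from -0.25 to 0.25 with a median of 0.01. Values of member and host stand side by side here, measured on the same arrays. Mir423 stood at 0.18 and its host Nsrp1 at -0.25, Mir339 at -0.29 and C12h7orf50 at 0.19, and Mir207 at 0.39 and Dnaja1 at -0.09. Mir21 stood beside Vmp1 (-0.17 and -0.22) and Mir483 beside Igf2, the fetal growth factor (0.32 and 0.25, the former resting on PSC replicates 2 and 5 as given above). None of these hosts passed (adjusted p from 0.112 to 0.461). Whether a member differed from its host was not tested.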

How the data were processed

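Liver RNA of 12 rats, 6 per diet, was measured on Affymetrix Rat Gene 2.0 ST arrays. Per the submitters' processing notes, RMA and Affymetrix Expression Console gave the deposited log2 values. RMA subtracts background, equalises array distributions and summarises probes, which compresses differences of dim rows. No label names a software version, and the number of arrays limits the precision.

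Of 30347 rows 18511 name 1 gene, 575 several and 11261 none. The row with the highest mean was kept per gene. RefSeq GRCr8 matched 18059 of the 18166 genes by number. Diets were compared with limma 3.58.1 in R 4.3.3 (lmFit, eBayes, two-sided) with Benjamini-Hochberg adjustment over 18166 genes and a threshold of 0.05. On simulated data 78% of genes changed by 0.5 and 100% of those changed by 1 were recovered. The simulated noise was independent between genes, and the changed genes were drawn from all genes. Members had larger SDs than all genes, so these shares do not give the recovery for members. Figures used matplotlib 3.10.9.

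Members and lists were chosen with earlier results of these data known. Named are the called members, the 10 with the smallest p, the 10 with the highest mean, those with control means from 3.9 to 4.1, members of the liver lists and members sharing seeds, hosts of members, and the 4 processing genes with the smallest p. Other genes were named after their values were seen, among them Mir191, the Meg3 region genes, Drosha, Dgcr8 and Dicer1. Alternatives were all rows, a filter on dim genes, repeated quantile normalization, median centring, cyclic loess, a variance trend, array weights, the replicate block, the mean of a gene's rows, other member rules, a threshold of 0.1 and leaving out each array. Leaving out PSC replicates 2 and 5 together was added after seeing the data.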

Additional observations from a re-analysis of the deposited data

Results flagged for a closer look

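Among the 74 groups of 6 arrays of 37 named genes, 6 held an array whose gap to its neighbour was large against the range of its group, where chance flags about 1 in 20. Mir21 stood at 3.81 on PSC replicate 6, the lowest of its diet. Mir210 stood at 6.98 on PSC replicate 5, again the lowest. Mir290 reached 5.36 on PSC replicate 1, above the other PSC arrays. Mir483 stood at 6.21 on control replicate 4 and Mir568 at 6.63 on control replicate 2, the lowest control values of each. Mir7-1 reached 4.39 on control replicate 4, the highest control value of a gene that entered with a control mean of 4.01.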

How the results depend on the processing

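Over all genes 473 were called. The count was 254 over all rows, 94 with the replicate number as a block, 225 without PSC replicates 2 and 5 together, 1140 at an adjusted p below 0.1, and 142 to 735 without single arrays. Of the members 4 were called. The count was 2 over all rows, 7 under median centring, 1 with the replicate block, 2 without PSC replicates 2 and 5 (Mir291b, and Mir568 lower), 2 with a control mean of 5 or higher, 8 with no signal minimum, 8 at an adjusted p below 0.1, and 1 to 5 without single arrays. The median difference of members kept its sign, from 0.03 to 0.098 over all alternatives, and 0.051 to 0.098 without single arrays. Median centring gave 12.3% of calls higher against 27.5% in the deposited values. Over all genes, deviations of same-numbered arrays correlated above 0.1 for 1 of 6 replicate numbers. Pairing by number that touches only part of the genes was not tested. The cause of these changes was not tested, beyond the fewer samples or different number of tests that a setting sets by construction.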

Other observations

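Below the signal minimum, 4 of 240 microRNA genes were called (1.67%), beside 2.6% of all genes. Mir294 of the Mir290 group was among them. Mir30a, of a family abundant in many tissues, had control values from 2.69 to 3.14 and PSC values from 3.33 to 3.72, with no overlap. Its means were 2.96 ± 0.16 and 3.47 ± 0.15 (SD, n = 6), a difference of 0.51 (SE 0.09, limma adjusted p = 0.00952). Mirlet7d, a let-7 gene, fell by 0.45 on the log2 scale (adjusted p = 0.0489), from a range of 2.79 to 3.47 to a range of 2.45 to 2.86. Mir3553, whose hairpin overlaps Mir183 on the other strand, rose by 0.29 (adjusted p = 0.0439), from 2.05 ± 0.13 to 2.34 ± 0.09.

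Rows that name several genes were left out of the member rule. Mir295-1 and Mir295-2, further genes of the embryonic Mir290 group by name, share a pair of rows with identical values. The rows ran from 4.09 to 4.83 on control arrays and from 4.8 to 5.22 on PSC arrays, with means of 4.59 ± 0.27 and 5.05 ± 0.14 (SD, n = 6). The difference of 0.46 (SE 0.11) did not pass when adjusted over all rows (limma adjusted p = 0.0726).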
